A study of Mus musculus with 2 samples.

Results

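Transcripts of 38 lysosome and autophagy genes were followed through the haematopoietic stem and progenitor cells of aged mice. The genes were selected on their known roles, by symbol, out of 32285 genes in the matrices, and all 38 symbols were found. The list was put together with summed and per-gene UMIs (unique molecular identifiers, 1 per captured transcript) across surface-tag gates and conditions already in view, so the levels below describe these pools and are no independent support for a choice of genes. No cut-off on a value decided which genes were members. They gave 472172 of 129749170 gene UMIs.

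The cells were LSK cells (cells that lack lineage markers and carry Sca-1 and c-Kit) from lineage-depleted bone marrow, profiled by CITE-seq, which reads RNA and antibody-borne surface tags in the same cell. Deferoxamine, which binds iron, was given at 50 mg/kg, and control mice had the vehicle HBSS, on each of 7 days, every 4 weeks, over 13 months from about 6 months of age. No genotype or strain was given in the sources used here, nor was the number of mice behind a pool. Each condition was 1 pool with its own hashtag antibody (control and chelator, labelled IC), and both pools went into 1 loading.

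Lysosomes are acidic compartments in which hydrolases break down proteins, lipids and sugars. A proton pump, the V-ATPase, keeps them acidic, and membrane glycoproteins such as LAMP1 and LAMP2 line them. Autophagy delivers cytoplasm to lysosomes: the ULK1 complex and the lipid kinase PIK3C3 with Beclin 1 start a membrane sac, the ATG conjugation enzymes attach LC3 and GABARAP proteins to it, and receptors such as p62 (encoded by Sqstm1) load cargo. The transcription factors TFEB and TFE3 switch on many genes of both systems through a short promoter element, and haematopoietic stem cells (HSCs) are known to rely on autophagy and to keep large, slow lysosomes at rest.

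The core of that element, TCACGTGA, is shown first because it is the sequence through which TFEB and TFE3 are known to act on genes of this kind. RefSeq promoter windows (GRCm38.p6, from 250 bases before to 50 bases after an annotated start site) were given for 28 of the 38 members. Those of 5 members held the core on either strand, 17.9% against 1.12% of 27025 genes with a window. The shorter GTCACGTG was in 6 members (21.4% against 2.55%) and the E-box CACGTG in 9 (32.1% against 8.09%); the 3 motifs overlap one another, and a match is letters in a window, not a bound site. The lines below give 30 bases around the core, 5′ to 3′ on the gene's strand, with the core in capitals.
Mcoln1: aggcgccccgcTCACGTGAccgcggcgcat
Ctsa: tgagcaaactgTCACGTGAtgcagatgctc
Ctsa, the other match: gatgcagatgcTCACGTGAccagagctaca
Ctsd: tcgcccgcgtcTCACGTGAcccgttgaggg
Atp6v0d1: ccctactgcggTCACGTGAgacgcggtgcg
Atp6v1a: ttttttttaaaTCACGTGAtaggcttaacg
These stretches lie at chr8:3500462-3500491 (Mcoln1), chr2:164833749-164833778 and chr2:164833766-164833795 (Ctsa, which held the core at both -13 and 4 from its start site), chr7:142387908-142387937 (Ctsd), chr8:105566050-105566079 (Atp6v0d1) and chr16:44139373-44139402 (Atp6v1a). The last 3 are on the minus strand. Of these 5 genes, the RNA of Mcoln1, Atp6v0d1 and Atp6v1a was higher in the HSC gate than in the MPP4 gate described next, that of Ctsa was lower, and that of Ctsd did not pass the test.

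Cells were placed by 3 surface tags. The HSC gate (CD135-, CD48-, CD150+) held 1161 control and 1310 chelator cells, the MPP1 gate (all 3 negative) 548 and 562, the MPP2 gate (CD48+, CD150+) 92 and 100, the MPP3 gate (CD48+ alone, myeloid-biased) 502 and 611, and the MPP4 gate (CD135+, CD150-, lymphoid-biased) 1510 and 1293. Summed HSC marker genes reached 1096 and 1019 CPM (UMIs per 1000000 gene UMIs) in the HSC gate and 432 and 406 CPM in the MPP4 gate, and lymphoid-primed markers 12.1 and 14.5 against 823 and 895 CPM. Pool depth was 63240358 and 66508812 gene UMIs. The mean was 14205 and 14798 UMIs per cell in the HSC gate and 16736 and 18066 in the MPP4 gate. Cells with at least 2 UMIs over 12 G2 and M phase genes, called cycling here, made up 24.2% and 24.0% of the HSC gate and 53.0% and 58.8% of the MPP4 gate.

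Summed over the 38 members and scaled as CPM, the HSC gate had the highest level of the 5 gates in both pools. In control cells it stood at 4198 CPM in the HSC gate, 3879 in MPP1, 3417 in MPP3, 3391 in MPP4 and 3133 in MPP2. In chelator cells the levels were 4134, 3747, 3339, 3319 and 3104 CPM in the same order. The log2 ratio of the HSC to the MPP4 sum was 0.31 (95% counting interval 0.29 to 0.32) in control and 0.32 (0.30 to 0.33) in chelator cells. The gene Cd63 alone gave 512 and 506 CPM of the HSC sums and 181 and 170 CPM of the MPP4 sums. Per cell the member sums were closer, at 59.6 and 61.2 UMIs in the HSC gate against 56.8 and 60 in the MPP4 gate, because cells of the HSC gate held fewer UMIs in all. By this measure the HSC gate was not highest: MPP2 was at 72.2 and 71.4 UMIs and MPP3 at 67.3 and 65.7. MPP1 was lower, at 50.5 and 50.7. Intervals throughout cover counting error only.

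Each gene was tested between gates with edgeR's quasi-likelihood test on the 10 pool-by-gate sums, with the pool as a term. The p-values were adjusted over 14271 genes, and the 2 pools of different mice served as the replicates of a gate. Since the pools also differ in treatment, p-values measure only how far the gate differences varied between these 2 pools. At an adjusted p under 0.05, 17 of the 38 members were higher in the HSC gate than in MPP4 (background: 31.2% of all genes tested) and 6 were lower (background 30.8%). All together 23 members were called, 60.5%, where 62.1% of all genes were. Against MPP3, 18 were higher (background 30.6%) and 4 lower (background 30.2%), against MPP2 20 higher (background 20.6%) and 0 lower (background 19.8%; 1 was lower at an unadjusted p under 0.05 in edgeR, and DESeq2 also called 0 lower), and against MPP1 12 higher (background 14.7%) and 2 lower (background 12.3%). The median log2 ratio of the members to MPP4 was 0.094, where it was 0.0044 over all genes. The share of members called was thus near the background against MPP4 and MPP3, with more of the calls upward than among all genes.

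Lamp2, Cd63, Laptm4a, Ctsb, Ctsl, Grn, Gabarap, Gabarapl1, Map1lc3a and Map1lc3b, 10 members, were called higher in the HSC gate than in all 4 other gates (background 9.66%). Leaving out a pool was done by fitting the other pool's sums per sex and gate, split by Xist and Y-linked transcripts, so that the spread between the sexes stood in for that between pools. With the control pool left out 7 of them held this call and with the chelator pool left out 4 did, namely Cd63, Laptm4a, Ctsl and Gabarapl1. Among cells with no UMI of the cycling genes 2 did, Cd63 and Ctsl, but the MPP2 gate then held 11 control and 13 chelator cells. How many of all genes held this call in these fits is not given here. Another 10 members were called against none of the gates: Atp6v0c, Atp6v1h, Tfe3, Atg5, Atg7, Atg12, Atg16l1, Becn1, Wipi2 and Pik3c3.

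**Figure D1:**
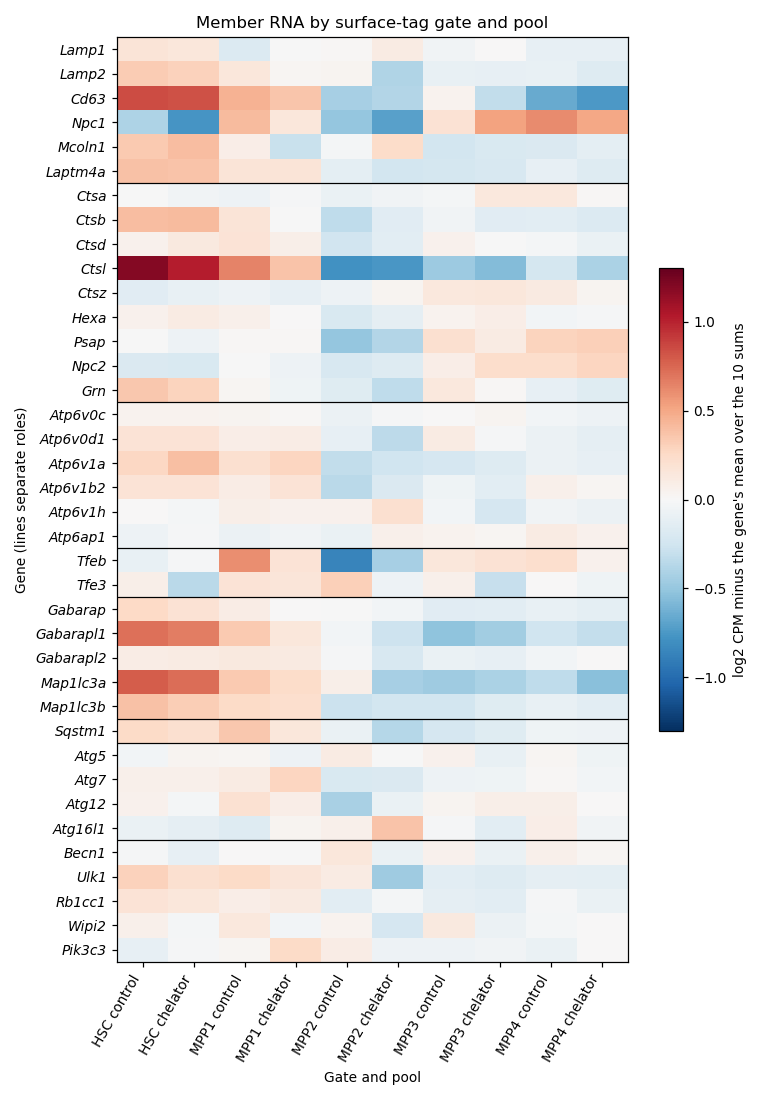
RNA level of each member (rows, separated by role) in the 5 surface-tag gates of each pool (columns), as log2 CPM minus the gene's mean over the 10 sums. The HSC columns of Cd63, Ctsl, Gabarapl1 and Map1lc3a are the reddest of the map, Npc1 is blue in the HSC and MPP2 columns, and most conjugation and initiation genes in the bottom rows are pale.

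The 6 members that encode lysosomal membrane proteins were all called between the HSC gate and MPP4, in either direction (background 62.1%). Of these, 5 were called higher and 1 lower in the HSC gate than in MPP4 (background 31.2% and 30.8%). Cd63 (chr10:128896231-128912822), a tetraspanin of late endosomes and lysosomes, stood at 512 and 506 CPM in the HSC gate of control and chelator cells. It was at 390 and 367 in MPP1, 211 and 218 in MPP2, 294 and 229 in MPP3 and 181 and 170 CPM in MPP4. Both HSC values lay above every other gate, and the MPP4 values were the lowest. The fitted log2 ratio to MPP4 was 1.5 (SE 0.067, edgeR adjusted p = 4.15e-11), and it was 1.23 (adjusted p = 1.45e-10) among cells with no cycling UMI. In MPP3, where the pools differed most, basophil and mast cell markers summed to 162 CPM in the control pool against 17.8 CPM in the chelator pool. Without the 4.96% of cells that bore mature markers other than Cd79b and Nkg7, Cd63 was at 275 and 219 CPM there.

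Laptm4a, a small transmembrane protein of late endosomes and lysosomes, was at 320 and 316 CPM in the HSC gate against 228 and 218 in MPP4 (log2 ratio 0.48, SE 0.041). Lamp2, the membrane glycoprotein that also serves chaperone-mediated autophagy, was at 92.5 and 90.3 against 68.7 and 65.4 CPM (0.42, SE 0.053), and Lamp1 at 158 and 156 against 131 and 131 CPM (0.23, SE 0.051). Mcoln1, the calcium channel of the lysosomal membrane, was at 25.6 and 26.6 against 17.7 and 18.5 CPM (0.50, SE 0.084, edgeR adjusted p = 9.57e-05). For these 4 genes too, no MPP4 value reached an HSC value.

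Npc1, the transporter that hands cholesterol out of the lysosome, went the other way. It was at 9.64 and 7.48 CPM in the HSC gate, 17.0 and 14.1 in MPP1, 8.96 and 7.83 in MPP2, 14.5 and 18.3 in MPP3 and 19.5 and 18.02 CPM in MPP4. HSC and MPP2 gates were both low and their ranges overlapped, whereas the other gates lay above them. The log2 ratio of HSC to MPP4 was -1.18 (SE 0.13, edgeR adjusted p = 8.83e-07) and fitted ratios to MPP3 and MPP1 were -1.0 and -0.83. With the chelator pool left out, the ratio to MPP1 was -0.68 and just missed the threshold (edgeR adjusted p = 0.050). It was the single member called lower than in MPP1, MPP3 and MPP4, and among cells with no cycling UMI its ratio to MPP4 was -1.23.

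**Figure D2:**
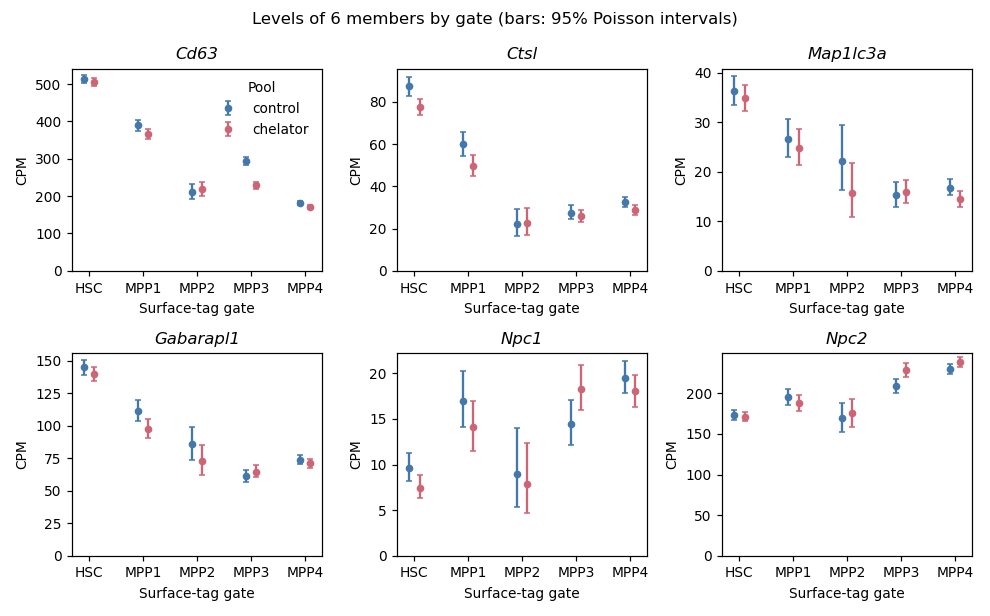
CPM of 6 members in each surface-tag gate, control pool in blue and chelator pool in red, with 95% Poisson intervals. Cd63, Ctsl, Map1lc3a and Gabarapl1 are highest in the HSC gate of both pools, while Npc1 and Npc2 are lower there than in MPP4.

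Among the 9 hydrolases, activators and lipid carriers of the lysosomal lumen, calls went both ways. Of them, 3 were higher and 4 lower in the HSC gate than in MPP4 (background 31.2% and 30.8%). The sum over the 9 hardly differed between these gates (log2 ratio 0.026 in control and 0.024 in chelator cells, with both counting intervals reaching just below 0). Ctsl (chr13:64361890-64370772), the cysteine protease cathepsin L, was at 87.4 and 77.5 CPM in the HSC gate and 59.98 and 49.6 in MPP1. It was at 22.2 and 22.6 CPM in MPP2, 27.5 and 25.9 in MPP3 and 32.6 and 28.7 in MPP4. The HSC gate was thus highest, MPP1 next and the other 3 gates low, in both pools. Its log2 ratio to MPP4 was 1.39 (SE 0.062, edgeR adjusted p = 3.58e-11), and 0.86 (adjusted p = 1.11e-08) among cells with no cycling UMI.

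Ctsb, cathepsin B, was at 154 and 155 CPM in the HSC gate against 106 and 103 in MPP4 (log2 ratio 0.53, SE 0.062). Grn, whose product progranulin is cut into granulins that act in the lysosome, was at 123 and 118 against 89.5 and 86.2 CPM (0.42, SE 0.050). Npc2 (chr12:84754559-84773112), the soluble protein that passes cholesterol to NPC1, was lower, at 173 and 171 against 230 and 238 CPM (-0.48, SE 0.049, edgeR adjusted p = 6.17e-07). The cholesterol carrier and its membrane partner Npc1 were therefore both lower in the HSC gate than in MPP4.

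Ctsz and Ctsa, a carboxypeptidase of the cathepsin family and the protective protein cathepsin A, were called lower by small amounts, with log2 ratios of -0.23 (SE 0.047) and -0.14 (SE 0.056). Among cells with no cycling UMI neither was called: Ctsz was at 0.14 (edgeR adjusted p = 0.24) and Ctsa at -0.052 (0.71). Both also lost the call with either pool left out, though Ctsz stayed at -0.19 and -0.20 and Ctsa at -0.082 and -0.15. Ctsd, the aspartic protease cathepsin D, was at 169 and 178 CPM in the HSC gate and 159 and 153 in MPP4 (0.12, SE 0.054, edgeR adjusted p = 0.075). Hexa, a subunit of beta-hexosaminidase, was at 79.2 and 82.3 against 74.7 and 75.3 CPM (0.075, SE 0.045).

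Psap (chr10:60277628-60302600), the precursor of the saposins that help break down sphingolipids, was called in opposite directions. It stood at 239 and 229 CPM in the HSC gate and 242 and 242 in MPP1. MPP2 had 169 and 183, MPP3 277 and 258, and MPP4 291 and 297 CPM. The HSC gate was above MPP2 (log2 ratio 0.40, SE 0.059) and below MPP4 (-0.37, SE 0.048, edgeR adjusted p = 8.13e-06). Psap was seen in 93.5% of cells, and the 80 cells richest in it, 1% of all, held 14.4% of its UMIs, with up to 169 in 1 cell. Counting ties, 89 cells were at or above that level, 57 of them in the MPP4 gate, 23 in MPP3 and 2 in the HSC gate. In those 89 cells granulocyte-monocyte-primed markers summed to 4355 CPM against 1206 in all other cells, lymphoid-primed markers to 462 against 386, and HSC markers to 164 against 654. Of the mature lists, granulocyte and monocyte markers summed to 196 against 7.73 CPM, dendritic cell markers to 167 against 2.09, B cell markers to 56.1 against 38.3 and macrophage markers to 34.6 against 6.10. T, NK and innate lymphoid markers were at 121 against 195 CPM, megakaryocyte markers at 32.8 against 190, basophil and mast cell markers at 6.56 against 25.9 and erythroid markers at 5.10 against 197. Outside these lists, immunoglobulin segments were high in the 89 cells. Igkv8-21 was at 10015 against 1.28 CPM and Ighv1-72 at 2248 against 0.228, and Cd74 was at 7121 against 208. How many of the cells held these transcripts is not given here. A fit that left the 89 cells out was among the alternatives, but its Psap ratio is not given here. Their part in the gate difference is therefore not stated. Among cells with no cycling UMI the Psap ratio of HSC to MPP4 was -0.19 and no longer called (edgeR adjusted p = 0.16).

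Of the 6 proton pump members, 2 were called higher and 1 lower in the HSC gate than in MPP4 (background 31.2% and 30.8%). These differences were small. Atp6v1a, the catalytic subunit of the cytosolic V1 part, was at 64.8 and 70.4 CPM in the HSC gate against 51.0 and 49.7 in MPP4 (log2 ratio 0.39, SE 0.057, edgeR adjusted p = 2.50e-05). Atp6v0d1, a subunit of the membrane part that joins it to the stalk, was at 86.6 and 86.8 against 72.8 and 70.4 CPM (0.24, SE 0.048), and with the chelator pool left out it was at 0.21 (edgeR adjusted p = 0.055). Atp6v0c, which forms the proton-carrying ring, was nearly level, at 220 and 220 against 208 and 203 CPM (0.065, SE 0.043). Atp6v1b2 and Atp6v1h were at 0.099 and 0.016 and were not called. Atp6ap1, an accessory subunit, was called lower at -0.16 (SE 0.056), but with the control pool left out it was at -0.12 (edgeR adjusted p = 0.33). Among cells with no cycling UMI it was at -0.093 and not called (edgeR adjusted p = 0.45). The pump as a sum was at 546 and 552 CPM in the HSC gate and 506 and 493 in MPP4.

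The transcription factors Tfeb and Tfe3 gave little signal, with 1549 and 1494 UMIs in all cells together. Tfeb was at 10.4 and 10.99 CPM in the HSC gate against 13.0 and 11.6 in MPP4, and Tfe3 at 12.4 and 9.23 against 11.8 and 11.3. Neither was called against MPP4 (log2 ratios -0.23, SE 0.12, edgeR adjusted p = 0.12, and -0.14, SE 0.12, edgeR adjusted p = 0.32). For Tfe3 the pools differed in sign, at 0.071 in control and -0.30 in chelator cells. Tfeb was called lower than in MPP1, where it stood at 17.0 CPM in control and 12.6 in chelator cells (-0.42, SE 0.14, edgeR adjusted p = 0.040). The log2 ratio was -0.70 in control and -0.20 (interval -0.55 to 0.16) in chelator cells, and the call ended with the control pool left out (-0.19, adjusted p = 0.60) and with DESeq2 (-0.43, adjusted p = 0.16).

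Of the LC3 and GABARAP family, 4 of 5 were called higher in the HSC gate than in MPP4 (background 31.2%). All 5 were called higher than in MPP3 (background 30.6%) and in MPP2 (background 20.6%). These ubiquitin-like proteins are anchored in the autophagosome membrane and bind cargo receptors. Map1lc3a (chr2:155276364-155278073) was at 36.4 and 34.9 CPM in the HSC gate, 26.6 and 24.9 in MPP1, 22.2 and 15.7 in MPP2, 15.3 and 15.9 in MPP3 and 16.8 and 14.5 in MPP4 (log2 ratio to MPP4 1.16, SE 0.072, edgeR adjusted p = 1.90e-09). Gabarapl1 (chr6:129533192-129542331) was at 145 and 140 CPM, then 111 and 97.7, 85.9 and 73.0, 61.2 and 64.7, and 73.8 and 71.1 in the same order of gates (0.94, SE 0.059, edgeR adjusted p = 2.20e-09). For both genes the HSC values were highest and the MPP1 values next. In cells with no cycling UMI the ratios to MPP4 were 1.08 and 0.86.

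Map1lc3b and Gabarap followed with smaller ratios. Map1lc3b, the LC3 form most used as an autophagosome marker, was at 254 and 244 CPM in the HSC gate and 183 and 178 in MPP4 (0.43, SE 0.046), and Gabarap at 254 and 242 against 199 and 194 (0.30, SE 0.043). Gabarapl2 was nearly level, at 132 and 133 against 120 and 124 CPM (0.089, SE 0.052, edgeR adjusted p = 0.15). Summed, the family was at 822 and 794 CPM in the HSC gate and 593 and 582 in MPP4. How reads shared between related genes were counted is not given in the sources used here.

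**Figure D3:**
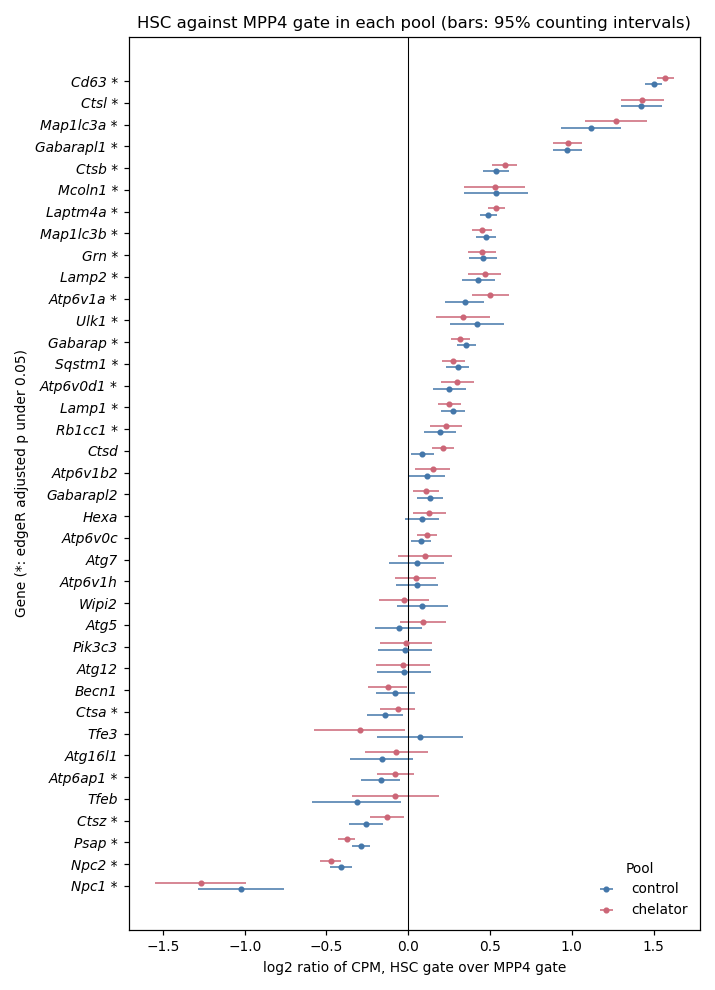
Log2 ratio of CPM in the HSC gate to the MPP4 gate for all 38 members, ordered by the fitted ratio, in the control (blue) and chelator (red) pools with 95% counting intervals. An asterisk marks an edgeR adjusted p under 0.05. Cd63, Ctsl, Map1lc3a and Gabarapl1 stand apart at the top and Npc1 at the bottom, and the pools lie close together for most genes.

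Sqstm1, which encodes the cargo receptor p62, was at 168 and 164 CPM in the HSC gate, 181 and 156 in MPP1 and 136.4 and 135.4 in MPP4 (log2 ratio to MPP4 0.26, SE 0.063, edgeR adjusted p = 0.0023). HSC and MPP1 values overlapped. Ulk1, the kinase that starts autophagy, was at 34.7 and 32.4 against 25.9 and 25.7 CPM in MPP4 (0.35, SE 0.067), and its scaffold partner Rb1cc1 at 90.1 and 87.8 against 78.6 and 74.8 (0.18, SE 0.044). Among cells with no cycling UMI the calls of Sqstm1, Ulk1 and Rb1cc1 ended, at log2 ratios of 0.10, 0.21 and 0.16 (edgeR adjusted p 0.31, 0.19 and 0.097). That of Rb1cc1 also ended with the chelator pool left out, at 0.19 (adjusted p 0.070), so its ratio stayed close to the 0.18 of all cells. The conjugation genes Atg5, Atg7, Atg12 and Atg16l1 had log2 ratios between -0.15 and 0.043 and none was called. Nor were Becn1 (-0.14), the lipid-binding scaffold Wipi2 (-0.0018) and the lipid kinase gene Pik3c3 (-0.050).

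Both pools held cells of both sexes, and the ratios of HSC to MPP4 were also read in the 4 strata of pool and sex, split by Xist and Y-linked transcripts. Of the 23 called members 22 had the fitted sign in all 4 strata, and Ctsa had it in 3. Counting members that were not called as well, 27 had it in all 4. The strata are parts of the same cells that gave the calls, so these counts are no separate support for the calls. The share of all called genes that kept their sign is not given here. Cd63 lay between 1.31 and 1.69, Ctsl between 1.37 and 1.48 and Npc1 between -1.39 and -0.78. The strata of either sex thus lay on the same side of 0 for these 3 genes.

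Other genes of the same systems were read from lists of the pathway's members. Among 44 other lysosomal hydrolases, carriers and sorting receptors, 18 were higher and 13 lower in the HSC gate than in MPP4. For this and the following lists the background was 31.2% higher and 30.8% lower. Cathepsin S, Ctss, had a log2 ratio of -3.48 (SE 0.12), the GM2 activator Gm2a -1.49 (SE 0.055) and cathepsin F, Ctsf, 1.48 (SE 0.067). Of 30 other membrane proteins tested, 6 were higher and 10 lower, with the macrophage sialomucin Cd68 at -1.37 (SE 0.13), the nucleoside transporter Slc29a3 at -1.0 (SE 0.079) and Laptm4b at -0.89 (SE 0.067). Of 15 other pump subunits and assembly factors, 2 were higher and 5 lower, with Tcirg1 at -0.81 (SE 0.068), Atp6v0a1 at 0.74 (SE 0.13) and Atp6ap2 at -0.27 (SE 0.060).

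Autophagy genes outside the member list were called higher in 14 and lower in 6 of 40 cases. The cargo receptor Optn was at 1.04 (SE 0.13), the membrane protein Vmp1 at 0.57 (SE 0.046) and the lipid-binding scaffold Wipi1 at 0.52 (SE 0.12). Of 27 regulators tested, 12 were higher and 6 lower. They included the kinase subunit Prkaa2 of AMPK at 1.5 (SE 0.20), the transcription factor Foxo1 at 1.3 (SE 0.088) and Myc, which is known to oppose TFEB at lysosomal promoters, at -0.81 (SE 0.042). The median log2 ratios of these 5 lists lay between -0.039 and 0.10, against 0.0044 over all genes. Over 14271 genes 62.1% were called, so the 50% called among the other autophagy genes and the 70.5% among the other hydrolases lie on either side of the background.

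Member RNA also differed with cell division inside the MPP4 gate, where 800 control and 760 chelator cells were cycling and 431 and 311 had no cycling UMI. By over 20% in both pools, 12 of 38 members were lower in cycling cells (background 15.4% of 10371 genes) and 0 were higher by over 25% (background 13.2%). The 12 were Lamp2, Cd63, Laptm4a, Ctsl, Atp6v1b2, Gabarapl1, Gabarapl2, Map1lc3a, Map1lc3b, Sqstm1, Atg12 and Ulk1. No test was run on these ratios, whose groups come from the same cells. Ctsl was at 23.0 CPM in cycling and 60.2 CPM in other control cells, and at 18.3 and 58.6 CPM in chelator cells. Cd63 was at 144 against 279 and 143 against 243 CPM, and Sqstm1 at 116 against 178 and 116 against 186. Ctsz, at 88.7 against 65.0 and 81.0 against 68.3 CPM, had the highest ratio of the 38 in control cells and in chelator cells of this gate. In the HSC gate Ctsz was at 59.8 CPM in cycling and 72.0 in other control cells, and at 66.5 and 70.8 in chelator cells, on the other side of 0. In that gate 0 members were higher (background 2023 of 10164 genes) and 12 lower (background 1491 of 10164) in both pools, Ctsl and Cd63 among them. Cells with fewer than 5000 UMIs were then left out and the others thinned to 5000 UMIs, still sorted as cycling by their full counts. After this, 9 of 35 measured members were lower (background 9.89% of 7322 genes) and 1, Pik3c3, was higher (background 13.3%).

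**Figure D4:**
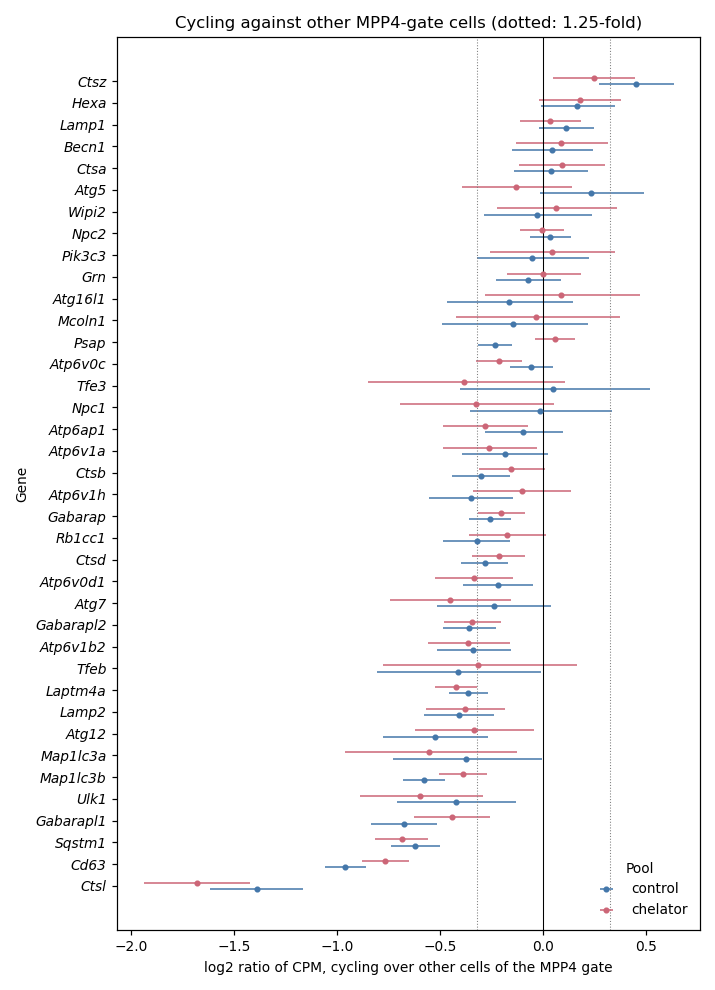
Log2 ratio of CPM in cycling to other cells of the MPP4 gate for each member, control pool in blue and chelator pool in red, with 95% counting intervals and dotted lines at 25% higher and 20% lower. Ctsl and Cd63 lie farthest to the left in both pools, and no member lies right of the upper dotted line in both.

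The tag panel held antibodies to 2 member proteins, CD63 and CD107a (LAMP1), at the cell surface. Mean CD63 tag UMIs were 19.5 and 21.2 in the HSC gate and 9.86 and 10.9 in the MPP4 gate of control and chelator cells. The isotype control tags moved with them, at 1.94 and 2.27 against 1.07 and 1.21, and the tag total per cell did too (medians 4314 and 4774.5 against 2365.5 and 2627). As a ratio to the isotype mean, CD63 was at 10.0 and 9.37 in the HSC gate and 9.19 and 8.99 in MPP4, and CD107a at 6.32 and 6.19 against 6.97 and 7.14. The mean centred log ratio, which scales a tag to all tags of its cell, was 0.81 and 0.81 for CD63 in the HSC gate and 0.51 and 0.54 in MPP4. For CD107a it was 0.32 and 0.36 against 0.19 and 0.24. Both scalings put CD63 higher in the HSC gate than in MPP4, by different amounts, whereas for CD107a the direction depended on the scaling. The isotype ratio of CD63 was not highest in the HSC gate, as MPP1 was at 10.6 and 9.64. MPP2 (9.87 and 9.49) and MPP3 (9.84 and 9.53) were above the HSC gate in chelator cells alone. By centred log ratio the HSC gate was highest in both pools, with MPP1 next at 0.71 and 0.72. Within the MPP4 gate, cells were cut into 4 equal groups by their CD63 tag. The group highest in the tag held 255 CPM of Cd63 RNA in control and 248 in chelator cells, and the group lowest in it 133 and 121. Within the HSC gate the same groups were at 535 and 531 against 492 and 465 CPM. From the lowest to the highest of 4 such groups by CD107a, Lamp1 RNA was at 124, 128, 137 and 134 CPM in control and 128, 127, 130 and 140 in chelator MPP4 cells, with no steady order.

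The study's own question was the effect of long chelation, and with 1 pool per condition no difference between conditions could be tested. Over all LSK cells the members lay close together in the pools. Their sum was 3665 CPM in control and 3614 in chelator cells (log2 ratio -0.020, 95% counting interval -0.029 to -0.012). Of 38 members 31 were below 0 and 7 above, with a median of -0.029, where the median over all genes was -0.0025. None was higher by over 25% (background 1.41% of 12513 genes) or lower by over 20% (background 1.61%). The log2 ratios ran from -0.24 to 0.080. Other cell types differed between the pools by more: in the MPP4 gate erythroid markers summed to 535 CPM in the control and 53.5 CPM in the chelator pool, and in MPP3 basophil and mast cell markers differed as given above. Their part in the member ratios was not tested.

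The 3 highest were Pik3c3 (30.4 CPM in control, 32.1 in chelator cells; log2 ratio 0.080, interval -0.0093 to 0.17), Atp6v1a (55.1 and 57.2; 0.055, -0.011 to 0.12) and Mcoln1 (20.2 and 20.9; 0.045, -0.065 to 0.16). All 3 intervals took in 0. The 3 lowest were Tfe3 (12.5 and 10.6 CPM; -0.24, -0.38 to -0.087), Ctsl (49.9 and 45.6; -0.13, -0.20 to -0.058) and Npc1 (15.2 and 14.0; -0.12, -0.25 to 0.015). Besides Tfe3 and Ctsl, the counting intervals of Cd63, Grn, Gabarap, Sqstm1, Becn1 and Wipi2 left out 0, all on the lower side. How many of all genes had such intervals is not given here. Grn was at 102 and 98.6 CPM, Gabarap at 217 and 212, Becn1 at 58.7 and 55.7 and Wipi2 at 34.8 and 32.5.

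In the HSC gate the member sum was 4198 CPM in control and 4134 in chelator cells (log2 ratio -0.022, interval -0.037 to -0.0076). No member was higher by over 25% (background 1.33% of 10617 genes), and Tfe3 and Npc1 were lower by over 20% (background 1.79%). Tfe3 was at 12.4 and 9.23 CPM (-0.43, interval -0.73 to -0.13) from 205 and 179 UMIs, and Npc1 at 9.64 and 7.48 CPM (-0.37, -0.70 to -0.032) from 159 and 145 UMIs. In MPP3 Npc1 was higher in the chelator pool (14.5 and 18.3 CPM; 0.34, 0.029 to 0.65), and the difference between the gates was not tested.

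Cells with Xist made up 42.1% of sexed control cells and 26.1% of sexed chelator cells, so each ratio was also read within a sex. Signs differed between the sexes for 19 of 38 members, and no member had the same sign with both intervals off 0. These counts have no share over all genes beside them. Tfe3 was at -0.091 (-0.37 to 0.19) in cells with Xist and -0.37 (-0.56 to -0.17) in cells with Y-linked transcripts, and Ctsl at 0.11 (-0.024 to 0.25) and -0.23 (-0.33 to -0.13). Grn was at -0.14 and 0.0087, and Gabarap at -0.055 and -0.058.

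**Figure D5:**
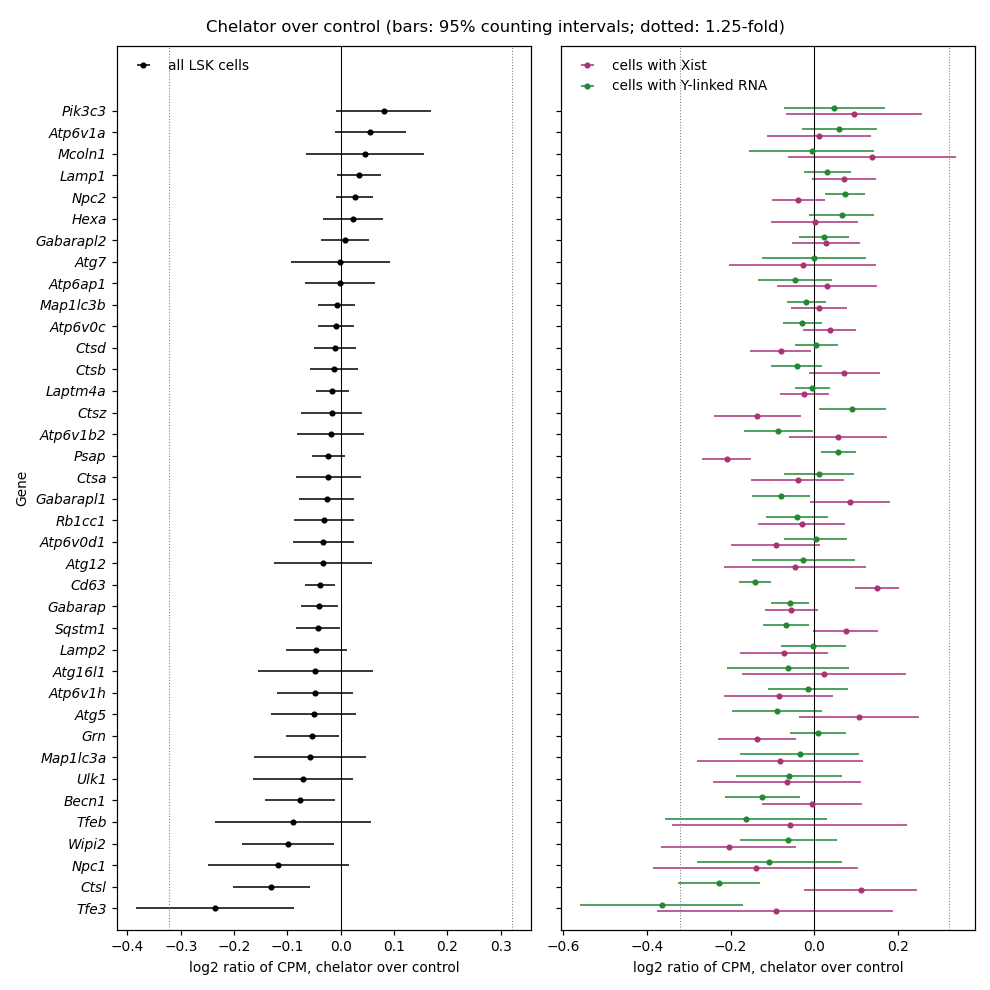
Log2 ratio of CPM in the chelator to the control pool for each member, ordered by the value in all LSK cells (left), and within cells with Xist or with Y-linked RNA (right), with 95% counting intervals and dotted lines at 25% higher and 20% lower. All points on the left lie inside the dotted lines, and on the right Cd63, Ctsz and Psap have intervals on opposite sides of 0.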

How the data were processed

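UMI counts per gene and cell were used as the authors deposited them, with 1 matrix per hashtag. Cell Ranger 7.0.0, Seurat 4.3.0 and mm10 are named per the submitters' processing notes, and the matrix headers name Cell Ranger 7.0.1. Barcodes were kept from 500 genes upward if mitochondrial UMIs stayed below 10% (3969 of 4026 control and 3998 of 4037 chelator barcodes, 0 shared). Doublets were not called. Gates came from a mixture of 2 normal distributions per tag, fitted to centred log ratios, and 32.9% of cells lay within 0.25 of a threshold. Counts were summed per pool and gate and tested with edgeR 4.0.16 (R 4.3.3, TMM, filterByExpr), with Benjamini-Hochberg adjustment; the fit was tested on simulated data. DESeq2 1.42.0, other filters, gates, thinning and left-out pools were alternatives. With 1 pool per condition, chelator and control were compared as CPM ratios with exact binomial 95% intervals, for genes with at least 200 UMIs.

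Members and lists were chosen with earlier results of these data known. Full values are given for the up to 6 members called highest and 6 called lowest against MPP4, the 3 highest and 3 lowest chelator ratios and the LC3 family, with up to 3 genes of each other list. Protein sequences were not used here.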

Additional observations from a re-analysis of the deposited data

Results flagged for a closer look

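For 3 members the chelator-to-control ratio pointed in opposite directions in the sexes, with counting intervals off 0 in both. Each sex was 1 set of cells per pool, so the difference between the sexes was not tested. The share of all genes with such opposite signs is not given here, so this count has no background. Cd63 had a log2 ratio of 0.15 in cells with Xist (285 and 316 CPM in control and chelator cells) and -0.14 in cells with Y-linked transcripts (330 and 299 CPM). Ctsz was at -0.14 (82.4 and 75 CPM) and 0.091 (70.1 and 74.6 CPM). Psap was at -0.21 (262 and 227 CPM) and 0.056 (254 and 264 CPM).

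Gate by gate, Cd63 in cells with Xist and with Y-linked transcripts was at 0.017 and -0.023 in the HSC gate, -0.21 and -0.057 in MPP1, -0.25 and 0.30 in MPP2, -0.21 and -0.49 in MPP3, and 0.25 and -0.26 in MPP4. In cells with Xist, MPP4 was thus the gate with a clearly positive Cd63 ratio (interval 0.14 to 0.37). Psap was at -0.24 and -0.0083 in the HSC gate, -0.24 and 0.099 in MPP1, -0.038 and -0.16 in MPP2, -0.63 and 0.18 in MPP3, and 0.066 and 0.045 in MPP4. For Ctsz 1 of the 10 intervals over sexes and gates left out 0, that of MPP2 cells with Y-linked transcripts (0.59, 0.047 to 1.16).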

How the results depend on the processing

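The pool was a term of the gate fit, which therefore compared gates within pools. Of the alternatives to counts and sums, 164 stayed within the limits set for a change and 32 did not; the cause was not tested. With 1 pool left out and the other fitted over its 2 sexes, members called higher in the HSC gate numbered 15 to 18 against MPP4, 14 to 15 against MPP3, 14 to 18 against MPP2, 6 to 10 against MPP1 and 4 to 7 against all 4 gates, and those called lower 3 to 4 against MPP4, 3 to 4 against MPP3 and 1 against MPP1. The 1 lower call against MPP1 was not the same gene each time. It was Npc1 with the control pool left out and Tfeb with the chelator pool left out. Over all genes tested, 4459 of 14271 were higher and 4397 lower in the HSC gate than in MPP4 in the main fit. Without the control pool these were 3200 and 3128 of 12854, and without the chelator pool 2946 and 2940 of 12667. For the other gates such counts under the alternatives are not given here. Lower calls against MPP4 were 3 without cells bearing mature markers, with cells thinned to 5000 UMIs and in cells with no cycling UMI. Over all genes the lower calls were then 2601 of 12737, 3029 of 12076 and 2240 of 12145. Against MPP3 they were 1 without mature-marker cells, and 2 when thinned or when the marker rule spared Cd79b and Nkg7. Against MPP1 they were 1 without cells near a threshold, with gates fitted per pool, without mature-marker cells, with DESeq2 and in cells with no cycling UMI. In those last cells 5 members were higher than in MPP2 and 2 than in all 4 gates. The median ratio to MPP4 was 0.14 without cells near a threshold and 0.15 when thinned. The ratio of sums was 0.36 without cells near a threshold, 0.25 without mature-marker cells, 0.34 with the narrower marker rule, 0.30 over the 4 strata and 0.25 in cells with no cycling UMI. Ctsz turned to 0.20 without mature-marker cells and 0.14 in cells with no cycling UMI, and Ctsa to 0.064 without mature-marker cells and 0.12 when thinned. The chelator-to-control ratio of sums was -0.011 when thinned, -0.0097 in cells with Xist and -0.030 with the 5 gates weighted equally. Tfe3 was the 1 member lower by over 20% without mature-marker cells, when thinned and in cells with Y-linked transcripts, and Ctsl turned to 0.11 in cells with Xist. Thinning gave 1 member, Pik3c3, higher in cycling cells. The rule on mature markers removed 47.5% of cells and the narrower one, chosen after seeing the data like the cycling alternative, 4.96%.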
